A study of Homo sapiens with 18 samples.

Results

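The regions described here are the promoter peaks of RNA polymerase II (RNAPII) that were listed in non-treated cells and had no counterpart in transformed cells. They were selected on the peak lists themselves: a member is a peak of the non-treated (NT) list that shares no base with any peak of the tamoxifen-treated (TAM) list. Of 11222 NT peaks, 1671 met this rule and 9551 overlapped a TAM peak. All samples came from MCF10A-ErSrc, an immortalised, non-tumorigenic human breast epithelial line that carries a v-Src kinase fused to a part of the oestrogen receptor, so that tamoxifen switches the oncogene on. The NT state is the line without tamoxifen and the TAM state the line after transformation by it. Each state was sampled after 4 h in triptolide (TPL) or in DMSO as the vehicle. The 18 samples are 8 RNA-Seq libraries, 8 RNAPII ChIP-Seq samples and 2 inputs, with 2 RNA-Seq replicates in each of the groups NT, NT + TPL, TAM and TAM + TPL. NT and TAM are the same line, so every group carries the fusion gene, and a single line stands for each state. Of the epithelial markers, the basal keratin gene KRT5 stood at 6250 and 5776 FPKM in NT libraries and 1308 FPKM in both TAM libraries. With TPL it stood at 4630 and 3677 FPKM in NT cells and 475 and 434 FPKM in TAM cells. The cadherin gene CDH1 had between 41.3 and 139 FPKM over the 8 libraries. The basal factor TP63 was below 1 FPKM in all 4 TPL libraries and between 13.2 and 24.2 FPKM in the others. Among luminal markers TFF1 was at 0 in all libraries, PGR at 0 to 0.01 FPKM and GATA3 at 1.71 to 6.38 FPKM. ESR1 had 36.9 to 248 FPKM, which may include reads from the oestrogen receptor part of the fusion gene. These values therefore do not show that the line's own ESR1 gene was expressed. The endothelial and blood genes CDH5 and HBB were at 0 in all libraries, PECAM1 at 0.46 to 1.69 FPKM and PTPRC at 0.16 to 2.14 FPKM. The part of these markers in the results was not tested.

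RNAPII gathers at the start sites of genes, where it waits close downstream of the transcription start site (TSS) before it is released into elongation. TFIIH is the general transcription factor that opens the promoter DNA through its XPB subunit and phosphorylates the tail of the polymerase through its kinase, and TPL binds XPB. A ChIP peak at a TSS therefore reports bound polymerase, while the amount of mature RNA also depends on elongation, processing and decay. The peaks were called by the authors, who kept those at a TSS of their own annotation, with 1 list per condition, and the lists hold only starts and ends. Presence or absence in a list thus has no replicate check and no height behind it. The peak names differ between lists: all 11056 TAM peaks carry a q of 0.1 in their name, and all peaks of the NT, NT + TPL and TAM + TPL lists a cutoff of 0.02. In the TAM list 4584 names also carry a letter after the peak number, and 0 names do in each of the other lists. Whether the TAM list was called at another threshold or divided into peaks in another way was not tested. Either could bear on membership and on peak width.

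Promoters of 5 genes are shown because they span what follows. ID3, HJURP and SVEP1 lie in members that were listed again in TAM cells with TPL, and TIMP3 and C3 in members found in neither TPL list. Each run is the 200 bases before the TSS, 5′ to 3′ on the strand of the gene, from build GRCh37 with GENCODE start sites. They are chr1:23885993-23886192 for ID3, chr2:234763182-234763381 for HJURP, chr9:113342022-113342221 for SVEP1 and chr19:6720662-6720861 for C3, all on the minus strand, and chr22:33197491-33197690 for TIMP3 on the plus strand. Capitals mark matches on either strand to the 10 motifs spelled out further on.
ID3: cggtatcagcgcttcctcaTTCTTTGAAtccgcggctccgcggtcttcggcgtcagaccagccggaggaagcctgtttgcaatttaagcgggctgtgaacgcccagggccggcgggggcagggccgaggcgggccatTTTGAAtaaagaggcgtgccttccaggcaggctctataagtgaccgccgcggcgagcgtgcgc
HJURP: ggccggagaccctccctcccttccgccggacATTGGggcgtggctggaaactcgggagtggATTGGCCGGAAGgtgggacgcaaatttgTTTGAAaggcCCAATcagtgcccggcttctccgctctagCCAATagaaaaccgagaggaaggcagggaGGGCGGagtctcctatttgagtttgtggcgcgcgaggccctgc
SVEP1: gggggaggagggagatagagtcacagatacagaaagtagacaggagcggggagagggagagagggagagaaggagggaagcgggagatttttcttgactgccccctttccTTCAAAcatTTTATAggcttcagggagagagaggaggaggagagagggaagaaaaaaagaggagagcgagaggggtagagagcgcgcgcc
TIMP3: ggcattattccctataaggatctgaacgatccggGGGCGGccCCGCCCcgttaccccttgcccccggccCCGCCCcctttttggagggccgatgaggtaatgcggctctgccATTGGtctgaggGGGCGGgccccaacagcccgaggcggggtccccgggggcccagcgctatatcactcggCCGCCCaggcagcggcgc
C3: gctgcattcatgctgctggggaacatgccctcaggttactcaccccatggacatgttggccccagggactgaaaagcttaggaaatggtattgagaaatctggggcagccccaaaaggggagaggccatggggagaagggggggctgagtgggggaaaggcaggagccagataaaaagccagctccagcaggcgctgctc
HJURP carries 4 CCAAT boxes, an ETS, a CHR and a GC box match, and TIMP3 carries 5 GC boxes and a CCAAT box. In ID3 the STAT match and the first of 2 CHR matches share bases. SVEP1 has a CHR match and a TATA box match, both on the opposite strand, and C3 has no match to any of the 10 motifs in this stretch. The promoters also differ in CpG, the dinucleotide that vertebrate genomes have largely lost outside CpG islands. The ratio of observed to expected CpG was 1.08 in ID3, 0.755 in HJURP, 0.726 in TIMP3, 0.571 in SVEP1 and 0.0626 in C3.

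The absent peaks were narrow. Because the rule counts shared bases, a narrow peak meets it more easily than a wide one. Width and membership are thus not independent, and part of the difference follows from the rule. Their median width was 287 bases (quartiles 213.5 and 442.5), against 706 bases (451 and 1107.5) for the NT peaks that overlapped a TAM peak. Of the members, 895 were under 300 bases wide, which is 53.6% (exact 95% binomial interval 51.1 to 56), compared with 904 or 9.46% (8.89 to 10.1) of the overlapping peaks. The share of NT peaks that were absent from the TAM list went from 68.5% of the 498 peaks of up to 200 bases to 18.5% of the 2384 peaks of over 300 and up to 500 bases and 2.71% of the 2210 peaks of over 1000 and up to 2000 bases. The TAM list as a whole also had narrower peaks than the NT list, with medians of 406 and 632 bases. Intervals cover counting error only. Just inside the rule, the 5 members closest to a TAM peak lay 4 to 22 bases from it, and just outside it, the 5 smallest overlaps were 1 to 10 bases.

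**Figure D1:**
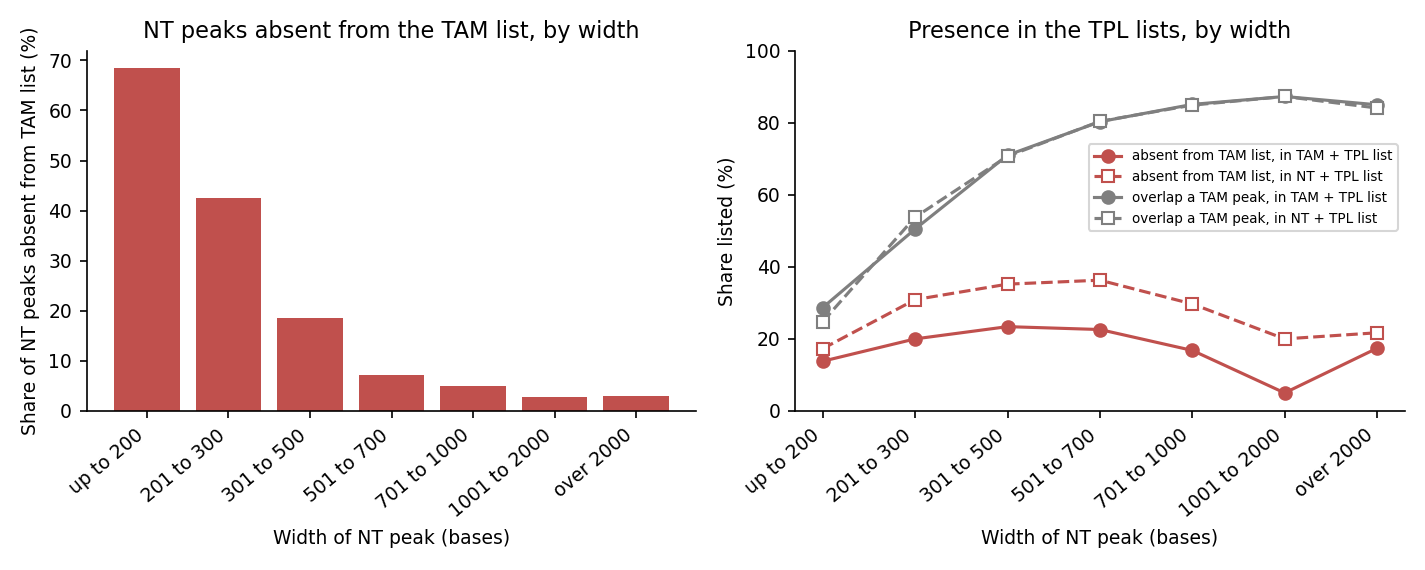
Left, share of NT peaks (%) that share no base with a TAM peak, in 7 classes of NT peak width in bases. It falls from 68.5% to about 3%. Right, share of the same width classes (%) listed in TAM + TPL (circles, solid lines) and NT + TPL (squares, dashed lines), for absent peaks (red) and for peaks that overlap a TAM peak (grey). Red points lie below grey ones in each class.

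The distance to the nearest TAM peak had a pair of modes, one below 1000 bases and one above 10000 bases. Within 500 bases lay 562 members (33.6%) and within 1000 bases 698 (41.8%), while 973 had no TAM peak within 1000 bases. Within 10000 bases there were 872 (52.2%) and within 100000 bases 1344 (80.4%). For 551 of the 698 near members (78.9%), the neighbouring TAM peak overlapped another NT peak, so NT cells had peaks at both places and TAM cells at one. That TAM peak held an annotated TSS in 558 cases (79.9%). An annotated TSS lay inside 1058 members (63.3%, interval 61 to 65.6), against 94.2% of the overlapping peaks (93.8 to 94.7). Members without one were mostly close to a start site, 552 of 569 on the main chromosomes having a TSS within 1000 bases, and a further 44 members lay on contigs that the annotation does not cover. TSSs on both strands, as in bidirectional promoters, were inside 5.63% of the members and 28.1% of the overlapping peaks. Among peaks under 300 bases the shares were 1.9 and 3.43%, with overlapping intervals (1.11 to 3.02 and 2.34 to 4.83).

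**Figure D2:**
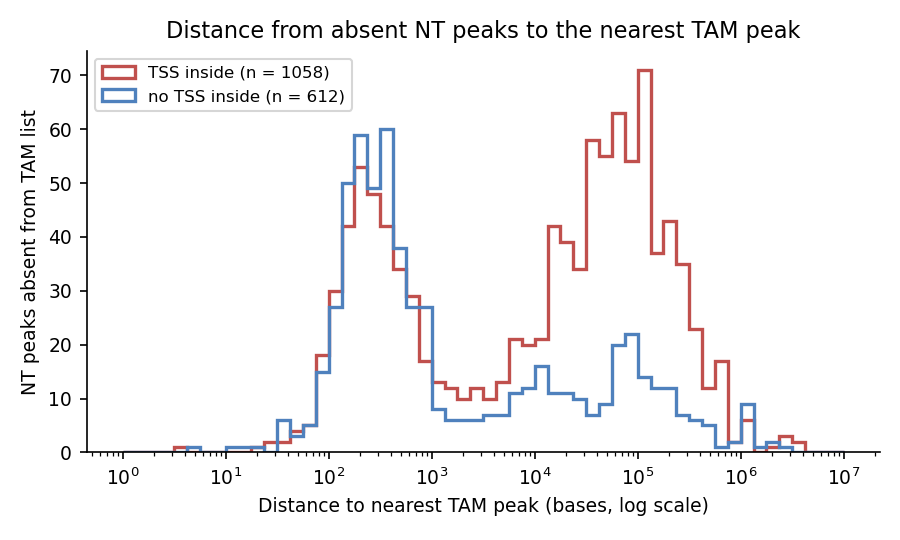
Number of NT peaks absent from the TAM list by distance in bases to the nearest TAM peak (log scale), for 1058 peaks with a TSS inside (red) and for the peaks without (blue). Both lines have a mode below 1000 bases, and peaks with a TSS have another and larger one above 10000 bases.

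By chromosome, the share of NT peaks that were absent was lowest on chromosome 10 (48 of 438 peaks, 11%). Leaving out chromosome Y, it was highest on chromosome X (84 of 313, 26.8%). Chromosome Y had only 5 NT peaks, 4 of them absent. Parts of its sequence are shared with chromosome X, so peaks listed there are uncertain.

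Of the 1671 members, 319 (19.1%, interval 17.2 to 21.1) were listed again in TAM cells with TPL. The NT + TPL list held 487 (29.1%, 27 to 31.4). In 253 cases (15.1%) the peak was in both TPL lists, in 234 (14%) in NT + TPL only, in 66 (3.95%) in TAM + TPL only and in 1118 (66.9%) in neither. Of the NT peaks that overlapped a TAM peak, 78.1% (7462 peaks) were in the TAM + TPL list, and the same number, though not the same peaks, in the NT + TPL list. Neither TPL list entered the rule. By that rule, however, overlapping peaks were found in another list, that of TAM cells, and members were not. The sets may thus differ in how readily a peak is listed at all, which was not tested and which width classes do not remove. Within width classes members were also listed less often: at over 300 and up to 500 bases, 23.4% of 440 members and 71% of 1944 overlapping peaks were listed in TAM + TPL, and at up to 200 bases 13.8% of 341 and 28.7% of 157. Members listed again held a TSS more often than those in neither TPL list, 80.6% (75.8 to 84.8) against 57.8% (54.8 to 60.7).

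The widest members listed again were led by a peak of 5496 bases at chr3:52726657-52732152 over GNL3, a nucleolar GTPase, GLT8D1 and the small nucleolar RNA SNORD69. It was followed by 3982 bases at SLC25A6, a mitochondrial ADP/ATP carrier gene in the pseudoautosomal region (chrX:1507929-1511910), 2298 bases at PPP1R10, a regulatory subunit of protein phosphatase 1 (chr6:30582877-30585174), 2261 bases at SVEP1, an extracellular matrix protein (chr9:113341070-113343330), 1367 bases at CSNK1G2, 1143 bases at HJURP, the chaperone of centromeric CENPA (chr2:234762542-234763684), 1012 bases at DDX5, 998 bases at ID3 (chr1:23885396-23886393), 984 bases at PRCC and 933 bases at LIPG. SLC25A6 and PPP1R10 were in the TAM + TPL list only, and the other 8 in both TPL lists. Copies of the SLC25A6 region on chromosome Y and of the PPP1R10 region on alternative haplotypes share sequence, so peaks there are uncertain. The widest members in neither TPL list included 6520 bases at chr17:80044683-80051202 with no TSS inside, 6423 bases across LAMA5 and ADRM1 (chr20:60878645-60885067), 5477 bases at AMOTL2 (chr3:134080525-134086001), 5107 bases on chromosome 4 with no TSS inside and 3060 bases at MIR100HG, a host gene of microRNAs (chr11:122049334-122052393).

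Where a member was listed again, the peak tended to sit further upstream. For 175 members that were in both TPL lists and had TSSs on 1 strand, the median centre lay 44 bases downstream of the TSS in NT, 1 base downstream in NT + TPL and 7 bases downstream in TAM + TPL. The median shift of the same peak from NT was 37.5 bases upstream in NT + TPL, with 127 of 175 moving upstream, and 35 bases upstream in TAM + TPL, with 126 of 175. Over 4469 peaks present in all lists the median shifts were 7.5 and 15 bases upstream, with 2359 and 2509 moving upstream. In TAM cells without TPL the same 4469 peaks had a median shift from NT of 20.5 bases upstream, with 2814 moving upstream, and the absent peaks have no such value. These are centres of called intervals, not of signal. The NT position entered the rule, since a member must miss every TAM peak. Of the members listed again, 43.6% had a TAM peak within 1000 bases. The 175 members were also narrower in NT than the 4469 peaks, with medians of 309 and 703 bases. The part of the rule and of width in the shifts was not tested.

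The promoters of the members were GC-rich, like those of expressed genes in general. In the window from 250 bases before to 50 after the TSS, the median GC content of 983 protein-coding member genes was 66% (quartiles 58.7 and 73), against 66.7% (61 and 72.7) for 9127 genes of overlapping peaks and 63.7% (55 and 71) for 19873 protein-coding genes. The CpG ratio had medians of 0.808, 0.884 and 0.777 in the same order. It was under 0.4 in 11.7% of member promoters, 2.08% of those of overlapping peaks and 24% of all. For peaks under 300 bases the shares were 8.44% of 474 member genes and 3.96% of 606.

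On either strand, the motifs searched were the TATA box (TATAAA), the CCAAT box (CCAAT), the GC box (GGGCGG), the ETS site (CCGGAAG), the cell cycle element CHR (TTTGAA), AP-1 (TGANTCA), the E-box (CACGTG), the STAT site (TTCNNNGAA), CRE (TGACGTCA) and E2F (TTTCGCGC), some of which can overlap. The CCAAT box was in 54.3% (interval 48.1 to 60.3) of the promoters of 269 genes whose member was listed again in TAM + TPL. It was in 33.1% (29.2 to 37.1) of 568 in neither TPL list, in 36% (35 to 37) of those of overlapping peaks and in 36% (35.4 to 36.7) of all protein-coding genes. The ETS site was in 22.7% (17.8 to 28.2) of the promoters listed again and 9.86% (7.53 to 12.6) of those in neither list, with 24.5% for overlapping peaks and 14.1% for all genes. For the CHR element the values were 14.1% (10.2 to 18.9) and 8.45% (6.3 to 11), with 7.98 and 11.5%, and the intervals of both member groups overlap. The GC box was in 63.2% (57.1 to 69) of those listed again and 74.8% (71 to 78.3) of those in neither list. TATA box shares were 7.43, 4.75, 4.4 and 9.63% in the same order as for the CCAAT box. Median GC content was 62.7% in the promoters listed again and 68.3% in those in neither list, and its part in the motif shares was not tested. These groups were not matched for peak width. For peaks under 300 bases, the CCAAT box was in 44.5% (40 to 49.1) of 474 member genes and 40.1% (36.2 to 44.1) of 606 genes of overlapping peaks. The ETS site was in 13.9% (10.9 to 17.4) and 20.1% (17 to 23.5) of them, and the intervals overlap for both motifs. A match describes letters in the window and not a bound site.

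**Figure D3:**
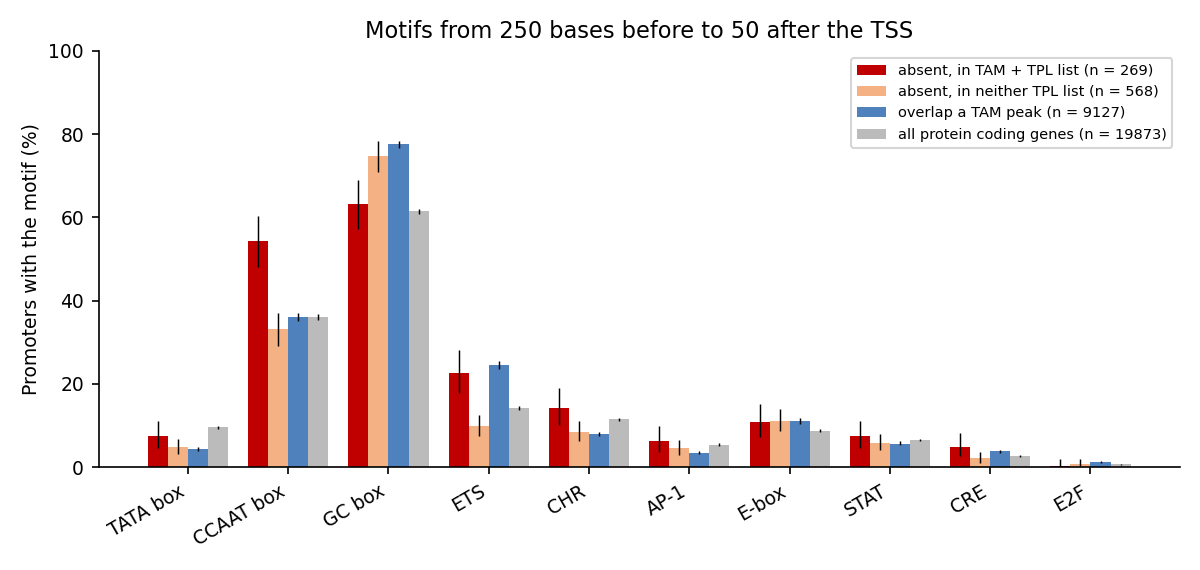
Share of promoters (%) with at least 1 match to each of 10 motifs from 250 bases before to 50 after the TSS, for genes of absent peaks listed again in TAM + TPL (dark red, n = 269), of absent peaks in neither TPL list (orange, n = 568), of NT peaks that overlap a TAM peak (blue, n = 9127) and all protein-coding genes (grey, n = 19873). Bars start at 0 and lines are exact 95% binomial intervals. The CCAAT box is at 54.3% in the first group and between 33.1 and 36% in the other ones.

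RNA-Seq gave a measure that the rule did not use. The members held a TSS of 1184 genes, of which 985 are protein-coding, 156 lncRNAs, 13 snoRNAs and 8 miRNA genes, and 1058 had a row in the RNA-Seq files. Of these 1058 genes, 1004 passed the filter on low counts and were tested. A gene can have several annotated TSSs, and 272 of the 1184 had another TSS in a TAM peak while 912 did not. In the NT replicates the 1058 genes had median levels of 5.31 and 5.46 FPKM, and in the TAM replicates of 5.05 and 4.97 FPKM, below the 9.02 to 9.67 FPKM of genes of overlapping peaks in the same 4 libraries. Within the members, genes with another TSS in a TAM peak had medians between 11.3 and 12.5 FPKM and those without between 3.86 and 4.44 FPKM. RNA was measured for most of these genes, 12.5% of the 1058 having a mean under 1 FPKM over the 8 libraries. In bulk libraries, fewer cells with an RNA and less of it per cell cannot be told apart.

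Between TAM and NT cells, the median log2 fold change of the 1004 tested member genes was -0.12, against -0.03 over all 16948 genes tested and 0.00 over 9249 genes of overlapping peaks. It was -0.16 for the 742 member genes with no TSS in any TAM peak, 61.3% of which had a fitted change below 0, and -0.05 for the 262 with one. A gene was called where its adjusted p did not exceed 0.001 and its log2 fold change reached 1.2 in either direction. Among the members 12 genes (1.2%) were called lower and 3 (0.299%) higher, where 0.277 and 0.378% of all genes tested were called. At an adjusted p of at most 0.05 alone, 76 (7.57%) were lower and 42 (4.18%) higher, where the shares over all genes were 3.39 and 3.46%. Among the 742 genes with no TSS in a TAM peak, 10 (1.35%) were called lower in TAM cells and 0 higher. At an adjusted p of at most 0.05 alone, 60 (8.09%) of these 742 were lower and 29 (3.91%) higher. The stricter counts rest on all libraries: without any 1 of the NT, TAM or TAM + TPL libraries, 0 member genes were called lower and 0 or 1 higher, and 0 to 13 genes of the whole table were called in a direction. Without either NT + TPL library they were 13 and 2.

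**Figure D4:**
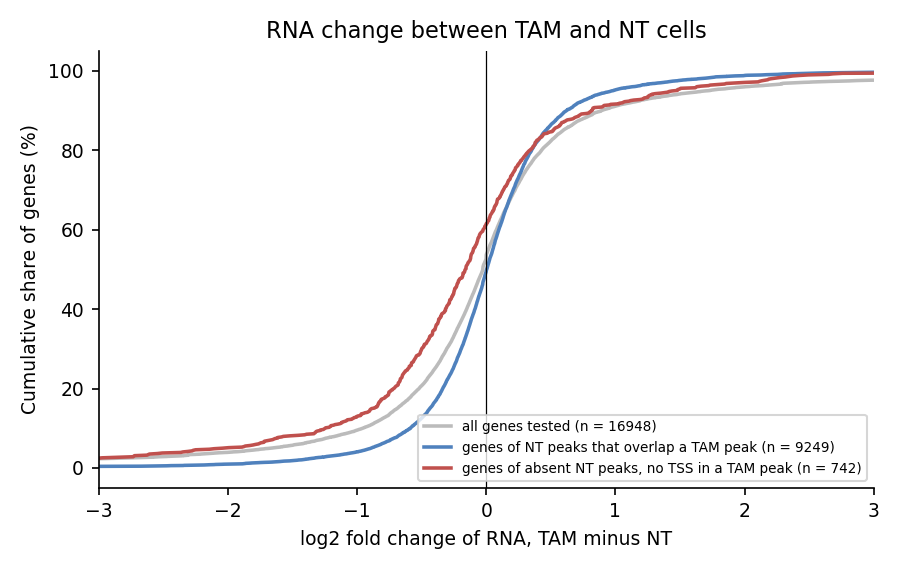
Cumulative share of genes (%) against the fitted log2 fold change of RNA between TAM and NT cells, for all 16948 genes tested (grey), 9249 genes of NT peaks that overlap a TAM peak (blue) and 742 genes of absent peaks with no TSS in a TAM peak (red). The horizontal axis is limited to changes between -3 and 3. The red line crosses 0 at 61.3% of its genes and the grey line at 52.6%.

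TIMP3, an inhibitor of metalloproteinases bound to the matrix, had 25.3 and 31.2 FPKM in NT libraries and 4.64 and 4.93 FPKM in TAM libraries (log2 fold change -2.54, SE 0.18, adjusted p = 0.000566). C3, the central protein of complement, had 159 and 180 FPKM in NT and 20.9 and 20.6 in TAM (-3.01, SE 0.24, adjusted p = 0.000889). The epithelial metalloproteinase MMP28 went from 24.9 and 20.4 FPKM to 1.29 and 2.11 (-3.83, SE 0.32, adjusted p = 0.000961). In none of these 3 genes did the NT and TAM replicates overlap, and each member was in neither TPL list. CLU, an extracellular chaperone, stood at 56.4 and 52 FPKM in NT and at 4.8 and 3.73 FPKM in TAM (-3.65, SE 0.26, adjusted p = 0.000601). With TPL it stood at 57.1 and 37.8 FPKM in TAM cells, on either side of the NT libraries, and at 214 and 163 FPKM in NT cells. Its peak of 274 bases was in both TPL lists.

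ID3, an inhibitor of basic helix-loop-helix factors and a target of BMP and TGF-beta signalling, had 40.4 and 40.2 FPKM in NT and 2.61 and 2.8 in TAM (-3.88, SE 0.18, adjusted p = 9.13e-05). With TPL it stood at 18.6 and 17.7 FPKM in NT cells and at 5.6 and 5.24 in TAM cells. Its peak was in the NT, NT + TPL and TAM + TPL lists, with the nearest TAM peak 131787 bases away. On chromosome 11, the neighbouring genes SYT8, a synaptotagmin, and TNNI2, a troponin I of fast muscle, lay in separate members and both fell. SYT8 had 184 and 134 FPKM in NT and 8.19 and 6.74 in TAM (-4.40, SE 0.25, adjusted p = 0.000238), and TNNI2 52.4 and 36.4 against 1 and 1.01 (-5.42, SE 0.36, adjusted p = 0.000476). FADS3, of the fatty acid desaturase family, had 78.7 and 66.4 FPKM in NT and 12.3 and 12.9 in TAM (-2.51, SE 0.15, adjusted p = 0.000289). CDR2L had 36.2 and 33.2 against 5.15 and 4.32 FPKM (-2.86, adjusted p = 0.000601), and RBMS3, an RNA-binding protein, 3.84 and 4.91 against 0.65 and 1.17 FPKM (-2.54, adjusted p = 0.00095). Outside the limit of 10 names per direction, and chosen after their values were seen, the other 2 genes called lower were TENT5B (-2.31) and the basement membrane collagen gene COL4A6 (-2.23).

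The 3 genes called higher each had another TSS inside a TAM peak, as did RBMS3 and COL4A6 among the genes called lower. Whether the absent peak and the TAM peak mark separate promoters of a gene was not tested. For PITPNC1 the nearest TAM peak lay 296 bases away. PHGDH, the first enzyme of serine synthesis from glycolytic intermediates, had 2.32 and 1.77 FPKM in NT and 53.5 and 53.9 in TAM (4.73, SE 0.21, adjusted p = 9.13e-05). NEDD4L, a ubiquitin ligase, had 5.92 and 5.79 against 42.9 and 39.7 FPKM (2.84, SE 0.14, adjusted p = 0.000128), and the lipid transfer protein gene PITPNC1 4.71 and 4.7 against 14.4 and 15.6 FPKM (1.69, SE 0.14, adjusted p = 0.000899). The absent peaks were 186, 434 and 348 bases wide.

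**Figure D5:**
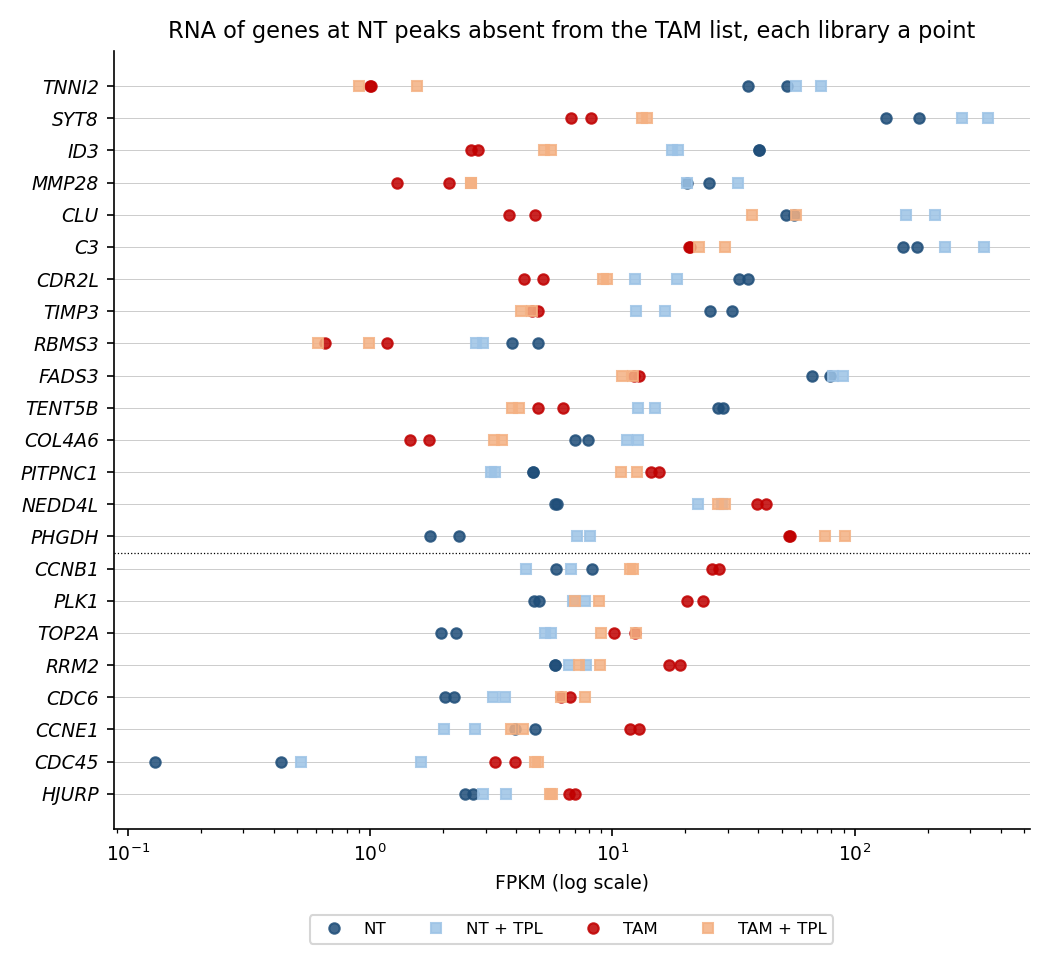
FPKM (log scale) of the 15 member genes called between TAM and NT cells, ordered by fold change (above the dotted line), and of 8 cell cycle genes of members (below it). Each point is a library, with 2 for each of NT (dark blue circles), NT + TPL (light blue squares), TAM (red circles) and TAM + TPL (orange squares). The TAM points lie left of the NT points in the first 12 genes and right of them in all genes below. The 8 cell cycle genes shown all passed at an adjusted p of at most 0.05, so their direction follows in part from the choice. List members that did not pass, such as CCNB2 and GINS2, are not shown.

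At the looser threshold, the largest falls among genes of at least 1 FPKM were joined by CLDN1, a tight junction protein, which had 184 and 221 FPKM in NT and 7.8 and 8.33 in TAM (-4.63, SE 0.44, adjusted p = 0.00167), and by the acute phase protein SAA1, with 2619 and 1850 FPKM against 109 and 99.1 (-4.40, SE 0.46, adjusted p = 0.00251). SAA1 reads can be shared with the near-identical SAA2. LFNG, a glycosyltransferase that modifies Notch receptors, had 0.83 and 1.13 FPKM in NT and 0.09 and 0.06 in TAM, which is a single count per TAM library (adjusted p = 0.00784). The angiomotin family gene AMOTL2, a Hippo pathway member with the third widest peak among those in neither TPL list, had 65.4 and 79.1 FPKM in NT and 11.4 and 13.3 in TAM (-2.53, adjusted p = 0.00125). NR4A1, an immediate early nuclear receptor, had 83.6 and 40.3 against 5.67 and 4.04 FPKM (-3.37, adjusted p = 0.00301), and SOX9 8.9 and 9.72 against 0.57 and 1.77 (-2.97, adjusted p = 0.0188). SVEP1 went from 3.5 and 4.77 to 1.05 and 0.85 FPKM (-2.11, adjusted p = 0.0033) and MIR100HG from 18.3 and 18 to 6.86 and 8.84 (-1.19, adjusted p = 0.0133). AMOTL2 and MIR100HG had another TSS in a TAM peak. Other genes rose at this threshold, where 42 members were higher and 76 lower. ALOXE3, with no TSS in a TAM peak, went from 0.11 and 0.26 to 2.92 and 3.88 FPKM (4.16, adjusted p = 0.00223). IRF7 went from 2.16 and 2.71 to 10.4 and 8.84 FPKM (1.99, adjusted p = 0.00265). THUMPD3-AS1 went from 0 in both NT libraries to 0.3 and 1.47 FPKM in TAM (adjusted p = 0.0497), in 1 of 3 rows for this gene.

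Receptor tyrosine kinase genes were represented by 5 members out of 19 genes of the list with a TSS in an NT peak. Over all genes with an RNA-Seq row and an NT peak, 1058 lay in members and 9794 in overlapping peaks only. None of the 5 had a TSS in a TAM peak. AXL fell from 17.2 and 17.2 to 3.84 and 5.73 FPKM (-1.83, SE 0.32, adjusted p = 0.0182) and FGFR2 from 7.74 and 7.81 to 3.22 and 3.52 (-1.21, SE 0.22, adjusted p = 0.0211, in 1 of 2 rows for this gene). The other three did not pass: EPHB2 (-3.02, adjusted p = 0.123), ERBB3 (-0.24, 0.475) and the feedback inhibitor SPRY1 (-0.12, 0.899). Of the 17 further tested genes of the list, 4 were lower and 2 higher. In the list of hemidesmosome, laminin and integrin genes, 3 of 15 lay in members. DST, which anchors keratin filaments at hemidesmosomes, fell from 15.5 and 23.9 to 7.18 and 6.36 FPKM (-1.42, adjusted p = 0.0199). PLEC, of the same plakin family, had 209 and 223 FPKM in NT and 212 and 168 in TAM (-0.18, adjusted p = 0.63), and LAMA5 20 and 23.5 against 20.7 and 11.3 (-0.42, adjusted p = 0.614). All 3 of these genes kept another TSS in a TAM peak.

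Over all genes with an RNA-Seq row and a TSS in an NT peak, 1058 lay in members and 9794 in overlapping peaks only. A larger share of both cell cycle lists was in members, and the difference was not tested. For the cell cycle genes that were in members, RNA was mostly higher in TAM cells. Of 19 genes of the G1/S and replication list with a TSS in an NT peak, 7 were in members (GINS2, CDC6, CCNE1, RRM2, E2F1, CDC45 and CCNE2), and 5 of these had higher RNA in TAM cells at an adjusted p of at most 0.05. No TSS in a TAM peak was found for 5 of the 7. Of the 12 other tested genes of this list, with or without an NT peak, 8 were higher. The mitosis list has 20 genes, all tested, and 18 of them had a TSS in an NT peak. Of these, 5 were in members (CCNB2, PLK1, TOP2A, CENPA and CCNB1), 4 of which had no TSS in a TAM peak. RNA of 4 of the 5 was higher, as was that of 12 of the 15 genes of the list outside members. The median log2 fold changes were 1.65 for the 7 and 1.08 for the 12 genes of the first list, and 2.15 and 2.03 for the 5 and 15 of the second. Cyclin B1 (CCNB1) had 8.25 and 5.88 FPKM in NT and 25.7 and 27.5 in TAM (1.93, SE 0.24, adjusted p = 0.00471), the mitotic kinase PLK1 4.77 and 4.99 against 23.6 and 20.4 (2.19, SE 0.20, adjusted p = 0.00131) and topoisomerase TOP2A 2.26 and 1.97 against 10.1 and 12.4 (2.43, SE 0.21, adjusted p = 0.00122). The replication genes RRM2 and CDC6 had 5.78 and 5.78 against 17.1 and 19 FPKM (1.65, adjusted p = 0.0022) and 2.22 and 2.03 against 6.68 and 6.13 (1.62, adjusted p = 0.00711). HJURP rose from 2.66 and 2.46 to 6.65 and 7.04 FPKM (1.44, adjusted p = 0.0103). The peaks of these genes differed in distance from TAM peaks. That of CCNB1 lay 83 bases from a TAM peak and that of RRM2 190 bases, while those of PLK1, TOP2A, CDC6 and HJURP were 36894, 81120, 30111 and 286922 bases away. CCNB1, CDC6 and HJURP were in both TPL lists, PLK1 and TOP2A in NT + TPL only, and RRM2 in neither.

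For 8 of the 10 most abundant member genes, by mean FPKM in NT cells, the RNA did not pass the test in either direction. SLC25A6 had 510 and 458 FPKM in NT and 547 and 531 in TAM (0.17, SE 0.14, adjusted p = 0.564). RPL5, a protein of the large ribosomal subunit, had 840 and 730 against 959 and 1026 FPKM (0.35, SE 0.23, adjusted p = 0.47), and EIF4G2 263 and 346 against 268 and 254 (-0.20, adjusted p = 0.708). Log2 fold changes were 0.31 for the splicing factor gene SF3A2, 0.10 for PRKCSH, -0.23 for HNRNPH1 and -0.46 for DMKN, with adjusted p values between 0.295 and 0.813. Apart from SLC25A6, these genes and PLEC had another TSS in a TAM peak. The other two, SAA1 and CLDN1, fell as given above, and neither had a TSS in a TAM peak. Of 24 cilium assembly genes with a TSS in an NT peak, 6 lay in members, all without a TSS in a TAM peak, and their median log2 fold change was -0.34. DYNC2H1, a motor of transport within cilia, had 0.67 and 1.01 FPKM in NT and 0.32 and 0.38 in TAM (-1.25, adjusted p = 0.0523), and BBS9 1.49 and 1.28 against 0.55 and 0.3 FPKM (-1.72, adjusted p = 0.0768), both named after their values were seen. The transport genes IFT46, IFT52, IFT57 and the transition zone gene TCTN2 had adjusted p values between 0.461 and 0.758. None of 16 basal and epithelial marker genes with a TSS in an NT peak, of 13 STAT3 feedback genes or of 14 p53 targets was in a member. Over all genes with an NT peak, 1058 lay in members and 9794 in overlapping peaks only, so lists this short would hold few members. Whether the list counts differ from this share was not tested.

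With TPL, the shares of member genes called in TAM cells were close to those of all genes. Of 1004, 23 (2.29%) were called lower and 9 (0.896%) higher, where 2.04 and 0.844% of all genes were called. At an adjusted p of at most 0.05, 221 (22%) were lower and 119 (11.9%) higher, where the shares over all genes were 18.6 and 14.3%. These calls too were 0 in both directions without any 1 of the NT, TAM or TAM + TPL libraries, and 29 lower and 6 or 7 higher without an NT + TPL library. Genes whose member was listed again in TAM + TPL and those whose member was not had nearby medians, -0.10 over 273 genes and -0.12 over 731, with 3 and 20 called lower and 5 and 4 called higher. At an adjusted p of at most 0.05, 50 (18.3%) of the 273 genes were lower and 47 (17.2%) higher, against 171 (23.4%) and 72 (9.85%) of the 731. The difference between these groups was not tested. Values of TAM cells without TPL enter both this comparison and the one with NT cells.

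The genes described next were chosen for the size of their change with TPL, among genes of at least 1 FPKM over the 8 libraries, so that low levels in TAM cells follow from the choice. The ubiquitin ligase MARCHF3 had 0.34 and 0.31 FPKM in TAM and 5.7 and 5.4 FPKM in TAM + TPL (4.03, SE 0.27, adjusted p = 0.000328), and NRARP, a feedback regulator of Notch signalling, 1.17 and 1.31 against 16.7 and 14.9 (3.62, SE 0.24, adjusted p = 0.000328). In NT cells with TPL both genes were also above NT cells, at 4.61 and 5.79 FPKM for MARCHF3 and 23.5 and 15.4 for NRARP. Their members of 219 and 273 bases were in both TPL lists. CLU rose by 3.43 (SE 0.26, adjusted p = 0.0004), LFNG reached 2.26 and 2.06 FPKM (adjusted p = 0.00113) and EPHB2, a receptor of ephrin-B ligands, went from 0 and 0.37 to 2.47 and 2.05 FPKM (3.54, SE 0.94, adjusted p = 0.0278) in 1 of 3 rows for this gene. The peaks of LFNG and EPHB2 were in the NT + TPL list only.

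Of the 5 genes with the largest fitted falls with TPL, 4 passed the test. Their members were in neither TPL list, as were 66.9% of all members. These 4 were also lower with TPL in NT cells. There ESRP2 went from 48.6 and 50.8 to 3.91 and 2.08 FPKM and PPARGC1B from 3.97 and 4.91 to 0.19 and 0.01. SYBU went from 6.64 and 7.51 to 0.63 and 0.63 FPKM, and TSKU from 7.15 and 8.08 to 0 in both NT + TPL libraries. ESRP2, a regulator of epithelial splicing, had 33.8 and 32.8 FPKM in TAM and 2.4 and 2.77 with TPL (-3.73, SE 0.26, adjusted p = 0.000343). PPARGC1B, a transcriptional coactivator, had 2.87 and 3.15 against 0.09 and 0.1 FPKM (-5.02, SE 0.65, adjusted p = 0.00214), SYBU 3.62 and 3.32 against 0.44 and 0.14 (-3.67, SE 0.48, adjusted p = 0.00223) and the secreted protein TSKU 8.69 and 5.22 against 0.21 and 0.06 (-5.86, SE 0.60, adjusted p = 0.00148) in 1 of 3 rows for this gene. ASB8, in both TPL lists, had 7.98 and 3.32 FPKM in TAM and 0 in both TAM + TPL libraries (adjusted p = 0.0966), in 1 of 6 rows for this gene. Its fitted change was the largest of the 5 and did not pass. Among wide members listed again, GNL3 fell from 84.8 and 90.8 to 34.9 and 35.7 FPKM (-1.36, SE 0.13, adjusted p = 0.000671). PRCC fell from 123 and 115 to 54.4 and 43.4 (-1.33, SE 0.16, adjusted p = 0.00149), while PPP1R10 rose from 15.1 and 11.4 to 24.5 and 22.9 (0.80, SE 0.20, adjusted p = 0.0224). With TPL in NT cells, the log2 fold changes of GNL3, PRCC and PPP1R10 were -1.31, -0.98 and 0.96.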

How the data were processed

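RNAPII was measured by ChIP-Seq and RNA by RNA-Seq, with TPL at 125 nM for 4 h. Per the study's methods, the authors aligned ChIP reads to hg19 with SOAP2 (the submitters' processing notes also name BWA), called peaks over input with MACS, given as version 1.4.2, and annotated them with HOMER. The deposited peak lists give starts and ends, counted from 0 in the files and from 1 in the text. The expected counts were estimated by the authors with Bowtie2 and RSEM and deposited without normalization, and the deposited FPKM values are scaled to transcript length and library total. Depth was 7461309 to 8349448 counts per library, and that of the ChIP samples was not used here.

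Members, lists and rules were chosen with earlier results of these data known. Peaks overlap when they share at least 1 base. TSSs came from GENCODE release 44 placed on GRCh37. Of 23604 RNA-Seq rows, 21077 were named by gene ID and 2384 by accession in a RefSeq table on another build. Where a gene had several rows, the most abundant one named by gene ID was used. After rounding, edgeR 4.0.16 (R 4.3.3) was run on the counts with TMM scaling, a filter on low counts, the quasi-likelihood test and Benjamini-Hochberg adjustment, in 1 fit of 4 groups, checked on simulated data. Replicates are described as biological. Alternatives used limma 3.58.1 and DESeq2 1.42.0. The text names called genes, the 10 most abundant, the 10 widest peaks (among all members, those listed again and those in neither TPL list), the 5 largest changes per direction among genes of at least 1 FPKM, and members of gene lists, at most 4 each. Not every gene so chosen is described, and some items are not reported here.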

Additional observations from a re-analysis of the deposited data

Results flagged for a closer look

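Among the 1004 member genes tested, 2 had a response to TPL that differed between TAM and NT cells at an adjusted p of at most 0.05 in edgeR's test of the interaction, with a size of at least 1.2. ID3 had 40.4 and 40.2 FPKM in NT against 18.6 and 17.7 in NT + TPL, and 2.61 and 2.8 FPKM in TAM against 5.6 and 5.24 in TAM + TPL (difference 2.11 on the log2 scale, SE 0.23, adjusted p = 0.0417). NEDD4L had 5.92 and 5.79 FPKM in NT against 28.5 and 22.6 in NT + TPL, and 42.9 and 39.7 FPKM in TAM against 27.1 and 29.1 in TAM + TPL (difference -2.71, SE 0.19, adjusted p = 0.0192). In both genes, the TPL libraries of both cell kinds lay between the NT and the TAM libraries, and both peaks were in both TPL lists. Over all 16948 genes, 28 passed at this adjusted p.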

How the results depend on the processing

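The rule decides the number of members. With less than 50% of the NT peak covered as the rule, there were 4286 members and 2229 listed again, with no TAM peak within 1000 bases 973 and 180, at TSS level 4005 and 2469, among NT peaks of at least 500 bases 331 and 58, and, added after seeing the data, with no TSS of the gene in any TAM peak 831 and 209.

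Calls between TAM and NT (12 lower, 3 higher) were 51 and 31 with DESeq2, 32 and 14 with at least 10 counts in every library, 37 and 17 with rows of 1 gene summed, 3 and 1 with limma on log2(FPKM + 0.1), 5 lower with the 2 groups compared only, 6 higher without a filter and 0 higher with no TSS of the gene in any TAM peak. Calls with TPL in TAM cells (23 and 9) were 105 and 37, 64 and 19, 86 and 28, and 4 and 3 under the first 4 of these, 15 and 14 with upper quartile scaling, 11 and 3 with the 2 groups only, 13 lower with GAPDH as the reference, 10 lower with no TAM peak within 1000 bases, 11 lower with no TSS of the gene in any TAM peak and 14 higher without a filter. At an adjusted p of at most 0.05 with the same fold change, 53 and 36 members were called between TAM and NT and 140 and 51 with TPL. With 1 library left out, calls ranged from 0 to 13 lower and 0 to 2 higher between TAM and NT, and from 0 to 29 and 0 to 7 with TPL, and the medians from -0.16 to -0.09 and from -0.14 to -0.10. The lone library was taken to vary like the other groups.

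The replicate block left 2 genes lower between TAM and NT and 0 in both directions with TPL. Deviations of libraries with the same number correlated at -0.0614 for NT and TAM and -0.0445 for TAM and TAM + TPL, so the numbers were not taken as pairs.

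The median between TAM and NT (-0.12) was -0.60 with GAPDH, where that of all genes was -0.50, and -0.21 with no TAM peak within 1000 bases. The median with TPL (-0.12) turned to 0.13 with upper quartile scaling, where that of all genes was 0.29. It was -0.23 with GAPDH, -0.06 with library size only and with limma on log2(FPKM + 0.1), -0.05 with limma on log2(FPKM + 1), -0.04 with at least 10 counts in every library and with no TAM peak within 1000 bases, and -0.02 with no TSS in a TAM peak. Causes were not tested. The 35 named genes at an adjusted p of at most 0.05 kept their direction in all 694 values computed under the alternatives. A window of 500 bases on each side of the TSS raised the CCAAT box share of member promoters from 42.5 to 65.5%. Low counts limit the folds of genes near 0 FPKM, and the peak lists hold no depth.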
